A study of Homo sapiens with 12 samples.

Results

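Translation initiation and elongation factors were taken as the genes of the expression table whose symbols begin with EIF1 to EIF6 or with EEF1 or EEF2. This gave 61 of 9529 genes, of which 8 were EEF genes and 53 were EIF genes, the last including 13 subunits of EIF3. The data were poly(A) RNA libraries of NOMO-1, a human acute myeloid leukaemia cell line of monocytic type, in 12 libraries that form 6 groups of 2. Knockdown cells carried lentiviral shRNAs against ALKBH5, an RNA demethylase that removes N6-methyladenosine, and control cells carried an shRNA named shNS. Cells of both kinds were selected with puromycin and then sampled at 0, 8 and 12 h in actinomycin D, which blocks transcription, so that the level of an mRNA falls as it decays. The knockdown groups hold 1 library of each of 2 hairpins, called line D and line E here, and the shNS groups hold replicates 1 and 2 of the control. The sources used here do not tie these letters to the hairpin numbers. They also do not say whether the shNS replicates came from separate cultures, so the p-values cover library-to-library spread alone, which within shNS could be technical. The question is how much of each factor mRNA was left at 8 and 12 h, which factors lasted longer than the typical mRNA, and whether knockdown moved them.

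Initiation factors bring the small ribosomal subunit and the initiator tRNA to the start codon of an mRNA, and elongation factors then feed the ribosome with aminoacyl tRNAs and move it along. EIF2 carries the initiator tRNA, EIF3 is the large scaffold on the small subunit, and the EIF4 proteins bind the cap and unwind the leader. Many mRNAs of elongation factors and ribosomal proteins, and those of a few initiation factors, begin with a C followed by a run of pyrimidines, the terminal oligopyrimidine (TOP) motif through which growth signals control their translation.

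The deposited values are a normalised signal per gene. The median ERCC spike-in signal lay between 29.9 and 33.1 in all libraries, while the median gene fell to 3.12 in line D, 2.81 in line E, 2.85 in shNS replicate 1 and 2.74 in shNS replicate 2 at 12 h, where it was 25.1 to 33.1 at 0 h. The signal is therefore read per unit of spike-in, and fewer cells and less RNA per cell cannot be told apart in it. A division by gene length is not stated in the sources used here. Signals are therefore not compared between genes as abundances. ALKBH5, the targeted gene, had 31.2% (line D) and 26.0% (line E) of the mean shNS signal at 0 h, and 4.47% to 12.6% of it at the later times. Of the myeloid markers, 8 of 14 were listed (CD33, ITGAM, LYZ, CD68, SPI1, CEBPA, ELANE and CD4), as were 0 of 4 erythroid and 0 of 4 epithelial markers.

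All 61 factors passed the filter on low values, a mean signal of at least 1. At 0 h their mean deposited signal over the 4 lines ran from 3.92 for EIF5AL1 to 5411 for EEF1A1. The highest signals after EEF1A1 were those of EEF2 (3251), EEF1G (2214), EEF1B2 (1169) and EIF3E (721). The lowest after EIF5AL1 were those of EIF5A2 (8.80), EIF4EBP3 (8.85), the antisense RNA EIF3J-AS1 (12.7) and EIF4ENIF1 (14.5). Together the factors held 2.26% to 2.75% of the gene signal of a library, with no library apart from the rest. The values of 5 genes are uncertain because other loci could share their reads. EIF3CL is a near-identical copy of EIF3C, EIF5AL1 is a copy of EIF5A, EEF1E1-BLOC1S5 is a read-through transcript, EIF4EBP3 overlaps a read-through locus, and EIF3J-AS1 depends on a strand setting that the sources used here do not give.

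Nearly every factor mRNA fell in actinomycin D. Per unit of spike-in, 59 of the 61 factors fell by 8 h, beside 96% of all genes, and 61 of 61 fell by 12 h, beside 99.8% of all genes (limma over all genes, Benjamini-Hochberg adjusted p under 0.05). The factors that were not called at 8 h were EIF1, with a log2 change of -0.25 (SE 0.159, adjusted p = 0.140), and EIF4EBP3, with 0.18 (SE 0.186, adjusted p = 0.365). The median factor had 26.4% of its 0 h signal left at 8 h in line D, 34.1% in line E, 45.3% in shNS replicate 1 and 43.8% in shNS replicate 2. The median over all genes was 23.9% in line D, 33.6% in line E, 42.2% in shNS replicate 1 and 41.1% in shNS replicate 2. At 12 h the median factor had 10.6%, 10.1%, 12.0% and 12.3% left in line D, line E and shNS replicates 1 and 2, beside 10.9%, 10.7%, 11.9% and 12.9% for all genes. The typical factor mRNA thus fell about as far as the typical mRNA of the same library.

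Within that average the factors spread widely. Changes were next read relative to the median gene, after rescaling each library by the median of its gene ratios, as the mean of the 4 lines. By 12 h 18 of the 61 factors were higher than the median gene and 18 were lower, where 30.5% of all genes were called higher and 32.5% lower, or 63% in all. This even split depended on the scaling. With ERCC scaling 13 factors were higher and 25 lower by 12 h, beside 2957 and 3123 of all genes. On the deposited scale centred on each library's median 14 were higher and 26 lower, beside 2981 and 3133 of all genes. By 8 h 20 were higher and 15 lower, where 29.4% of all genes were called higher and 30.5% lower, or 59.9% in all. The share of factors called was close to that of all genes, so the result lies in which factors went which way. The order of the 61 factors by percent left was alike in all lines, with Spearman correlations over factors of 0.811 to 0.983 between pairs of lines and times compared, beside 0.820 to 0.971 over all genes. All values of a line share its 0 h library.

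**Figure D1:**
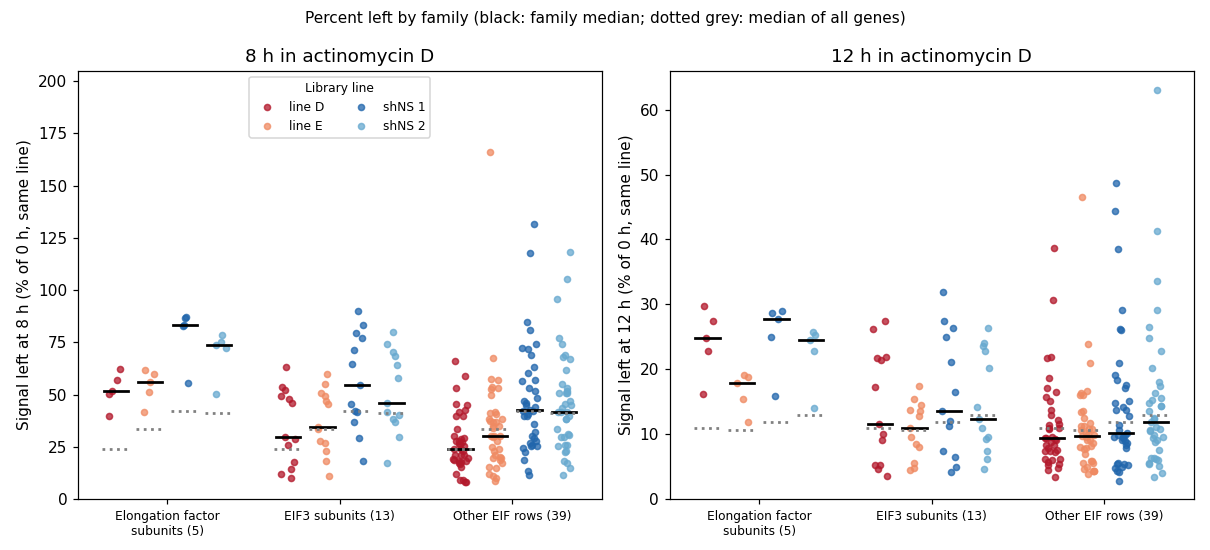
Percent of the 0 h signal left at 8 h (left) and 12 h (right) in 5 elongation factor subunits, 13 EIF3 subunits and 39 other EIF genes. Each point is 1 gene in 1 line, black bars are family medians and dotted grey bars the median of all genes in that line; the elongation factor subunits sit above the grey bars in all 4 lines.

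The subunits of the elongation factors lasted longest as a family. The genes measured were EEF1A1, which delivers aminoacyl tRNA to the ribosome, EEF1B2, EEF1D and EEF1G, which reload it with GTP, and EEF2, which drives translocation. At 12 h their median percent left was 24.9% in line D, 17.8% in line E, 27.8% in shNS replicate 1 and 24.5% in shNS replicate 2. All 5 of 5 were above the median gene of their library in all 4 lines at both times, where 39.5% of all genes were so at 8 h and 37.6% at 12 h. By 12 h 4 of the 5 were called higher than the median gene, where 30.5% of all genes were. The median log2 change of the 5 was 0.99, beside -0.00 for all genes.

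EEF1A1 (6:73515750-73523797, minus strand, GRCh38) had a signal of 5168 in line D, 5703 in line E, 5634 in shNS replicate 1 and 5137 in shNS replicate 2 at 0 h. At 12 h it had 1284, 879, 1404 and 1169 in the same order of lines, which is 24.9%, 15.4%, 24.9% and 22.8% of the 0 h signal. Line E kept the least of it, and all lines kept more than their median gene. Its log2 change relative to the median gene was 0.91 by 8 h (SE 0.12, adjusted p = 0.000233) and 0.90 by 12 h (SE 0.12, adjusted p = 0.000204). The exchange factor subunits were alike: the 12 h changes were 0.99 for EEF1B2 (SE 0.106, adjusted p = 6.14e-05), 1.10 for EEF1G (SE 0.12, adjusted p = 6.91e-05) and 1.11 for EEF1D (SE 0.12, adjusted p = 6.6e-05). EEF1G had 27.4% left in line D, 18.8% in line E, 28.6% in shNS replicate 1 and 25.7% in shNS replicate 2.

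EEF2 kept less of its signal at 12 h than each EEF1 subunit in every line. It had 16.2% left at 12 h in line D, 11.9% in line E, 15.9% in shNS replicate 1 and 14.1% in shNS replicate 2, 1.09 to 1.48 times the median gene. Its log2 change was 0.47 by 8 h (SE 0.132, adjusted p = 0.013), and the 12 h value of 0.32 was not called (SE 0.132, adjusted p = 0.0625). The ratio of the EEF1A1 signal to the EEF2 signal came to 1.96 in line D, 1.62 in line E, 1.59 in shNS replicate 1 and 1.55 in shNS replicate 2 at 0 h, and 3.02, 2.10, 2.49 and 2.51 at 12 h. It was higher at 12 h than at 0 h in each line.

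The EEF genes that are not subunits did otherwise. EEF2K, the kinase that inhibits EEF2, was lower than the median gene by 12 h, with a log2 change of -0.30 (SE 0.107, adjusted p = 0.0326). This call was lost under 13 of 23 alternatives, 8 of them leaving out a single library, where the change was -0.19 without the 0 h library of line E and -0.28 to -0.32 without any of the other 7. EEF1AKMT1, a lysine methyltransferase of EEF1A, was not called at 12 h (0.03, SE 0.216, adjusted p = 0.914). The read-through EEF1E1-BLOC1S5 was lower, at -0.97 (SE 0.101, adjusted p = 5.44e-05).

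Set against the 53 EIF genes, the 8 EEF genes had a median log2 change by 12 h that was higher by 0.94 in line D, 0.50 in line E, 0.79 in shNS replicate 1 and 0.60 in shNS replicate 2, or 0.71 ± 0.19 (SD, n = 4 lines). By 8 h the difference was 0.58 ± 0.14 (SD, n = 4 lines). It was above 0 in every line, and the members of a family are not replicates, so no test was made. With subunits alone on both sides it was 0.85 by 8 h and 0.97 by 12 h.

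Annotated gene starts, not start sites measured in these cells, are shown because the TOP motif is the best-known shared sequence of the family. They are the 10 bases before and the 20 bases from the RefSeq gene start (GRCh38.p14), with the longest run of a C followed by at least 4 pyrimidines in capitals. The first pair are EEF1A1 (chr6:73521013-73521042, minus strand) and EEF2 (chr19:3985444-3985473, minus strand), whose runs begin at the first base from the RefSeq gene start. EEF1B2 and EEF1G, also elongation factor subunits on the TOP list, have no such run in the window. EIF2A (chr3:150546777-150546806, plus strand) also has its run at the first base, and its mRNA was among those that fell below the median gene. EIF4B (chr12:53006446-53006475, plus strand) and EIF3F (chr11:7987327-7987356, plus strand) are on the TOP list, called lower and higher by 12 h. Their longest runs begin at positions 11 and -4. In both, the first base from the gene start is also a C followed by at least 4 pyrimidines. EIF4E (chr4:98929114-98929143, minus strand), the factor with the least left, has no such run in the window.
EEF1A1: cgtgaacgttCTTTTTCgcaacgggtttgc
EEF2: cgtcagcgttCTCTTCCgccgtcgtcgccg
EIF2A: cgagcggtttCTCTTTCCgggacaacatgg
EIF4B: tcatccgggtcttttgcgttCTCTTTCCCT
EIF3F: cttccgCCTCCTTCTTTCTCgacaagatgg
EIF4E: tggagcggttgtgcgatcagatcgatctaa

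A RefSeq start was matched for 49 of the 61 factors. The run, a C followed by at least 4 of C or T on the strand of the gene, was in the 30-base window of 24 of the 49, beside 38.4% of all 35116 RefSeq gene starts and 37.6% of those of genes in the table. It was in 6 of the 8 matched starts of the TOP list. It was in 7 of 13 factors called higher by 12 h and in 8 of 15 called lower. By 12 h 7 of the 13 factors of the TOP list were higher than the median gene (EEF1A1, EEF1B2, EEF1D, EEF1G, EIF3F, EIF3H and EIF3L). Another 4 were lower (EIF3A, EIF3E, EIF2A and EIF4B), where 30.5% of all genes were called higher and 32.5% lower. The median log2 change of the 13 was 0.46, beside -0.00 for all genes.

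EIF3, whose subunits assemble on the small ribosomal subunit, held mRNAs that lasted and mRNAs that did not. Of 13 measured subunits 6 were higher than the median gene by 12 h (EIF3K, EIF3L, EIF3CL, EIF3I, EIF3H and EIF3F), 4 were lower (EIF3A, EIF3M, EIF3E and EIF3J), and EIF3B, EIF3D and EIF3G were not called. With 30.5% of all genes called higher and 32.5% lower, calls in both directions are what the whole table shows too. Their median log2 change was 0.06. EIF3A, the largest subunit and a core of the complex, and EIF3K, a small peripheral one, were at the ends.

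EIF3K (19:38619082-38636955, plus strand) had a 0 h signal of 486 in line D, 468 in line E, 360 in shNS replicate 1 and 356 in shNS replicate 2. At 12 h 26.2% was left in line D, 17.5% in line E, 31.9% in shNS replicate 1 and 26.3% in shNS replicate 2. Its log2 change relative to the median gene was 1.10 (SE 0.142, adjusted p = 0.000168). EIF3A (10:119033670-119080823, minus strand) had a 0 h signal of 216 in line D, 175 in line E, 212 in shNS replicate 1 and 188 in shNS replicate 2. At 12 h 4.57%, 4.52%, 4.20% and 4.69% was left, nearly the same in all lines. Its log2 change was -1.33 (SE 0.143, adjusted p = 6.21e-05). The ratio of EIF3K to EIF3A signal was 1.70 to 2.68 at 0 h and 10.3 to 12.9 at 12 h, with no overlap between the times.

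EIF3L followed EIF3K, with 27.5% left at 12 h in line D, 14.5% in line E, 26.4% in shNS replicate 1 and 22.8% in shNS replicate 2 (log2 change 0.93, SE 0.134, adjusted p = 0.000321). EIF3CL had 0.85, EIF3I 0.77, EIF3H 0.70 and EIF3F 0.46. EIF3F was the weakest of these calls (SE 0.129, adjusted p = 0.0123). It was 0.40 without the 12 h library of shNS replicate 1 (adjusted p = 0.0532), 0.09 with ERCC scaling (adjusted p = 0.577) and 0.06 on the deposited scale centred on each library's median (adjusted p = 0.703), and was called in none of these. The 12 h change of EIF3H was 0.27 on that scale and also not called (adjusted p = 0.0849), nor was it with ERCC scaling (0.30, adjusted p = 0.062).

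On the other side, EIF3M had 3.63% left at 12 h in line D, 4.81% in line E, 4.97% in shNS replicate 1 and 6.10% in shNS replicate 2 (log2 change -1.24, SE 0.144, adjusted p = 9.77e-05). EIF3E, the subunit with the most deposited signal at 0 h, had 5.20% left in line D, 5.57% in line E, 6.43% in shNS replicate 1 and 7.36% in shNS replicate 2 (-0.92, SE 0.131, adjusted p = 0.000291). At 8 h EIF3E was not yet apart from the median gene (-0.23, SE 0.131, adjusted p = 0.151). The ratio of EIF3L to EIF3E came to 0.54 in line D, 0.61 in line E, 0.52 in shNS replicate 1 and 0.58 in shNS replicate 2 at 0 h, and 2.85, 1.60, 2.14 and 1.81 at 12 h, higher in each line. EIF3J, a loosely bound subunit, was at -0.63 by 12 h (SE 0.141, adjusted p = 0.004), and its antisense EIF3J-AS1 at -0.59 (SE 0.106, adjusted p = 0.00109). The EIF3J-AS1 call was lost with ERCC scaling (-0.23, adjusted p = 0.081) and on the deposited scale centred on each library's median (-0.20, adjusted p = 0.117).

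As a whole the family was hardly apart from the 39 other EIF genes. The median log2 change of the EIF3 subunits minus that of the others was 0.17 ± 0.10 by 8 h and 0.05 ± 0.14 by 12 h (SD, n = 4 lines). At 12 h it was 0.20 in line D, 0.06 in line E, 0.10 in shNS replicate 1 and -0.14 in shNS replicate 2, so its sign differed between lines, and it was -0.074 when means over members were taken in place of medians.

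**Figure D2:**
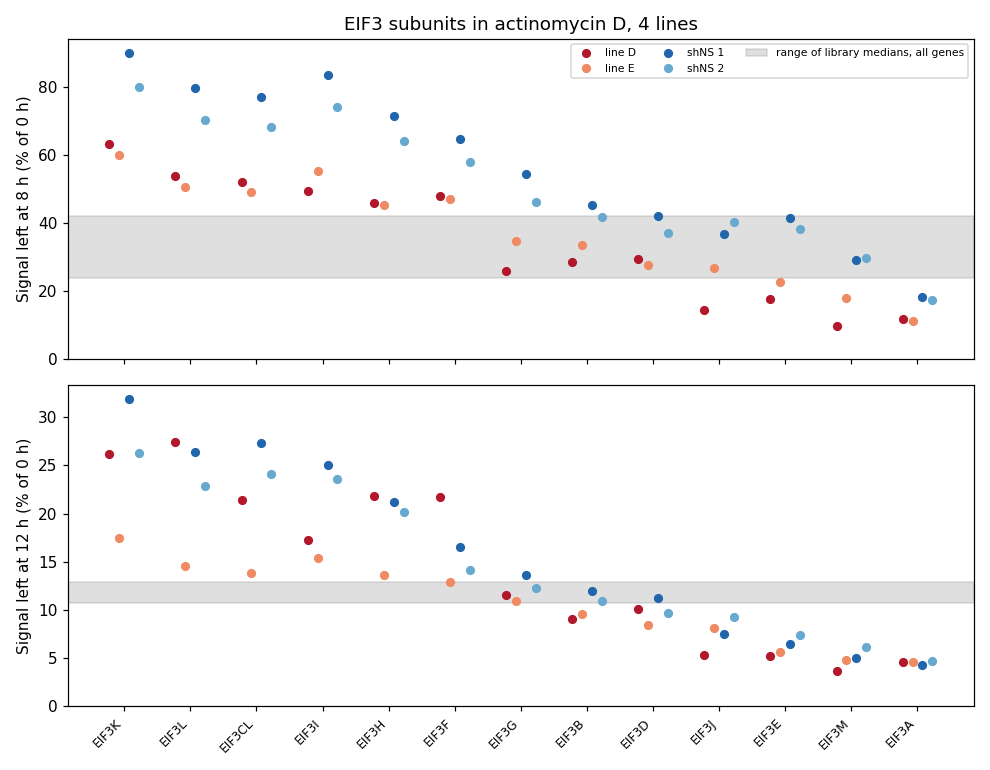
Percent of the 0 h signal left at 8 h (top) and 12 h (bottom) for 13 EIF3 subunits, ordered by their mean at 12 h, with 1 point per line. The grey band is the range of the library medians over all genes; EIF3K to EIF3F lie above it at 12 h in every line except EIF3F in line E, which is at its upper edge, and EIF3J to EIF3A lie below it.

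The EIF2 group was near the whole table in its calls. Of 8 genes for EIF2 subunits and its exchange factor EIF2B, which reloads EIF2 with GTP, 1 was higher than the median gene by 12 h and 3 were lower, where 30.5% of all genes were higher and 32.5% lower. Their median log2 change was -0.24. EIF2S1, the alpha subunit that stress kinases phosphorylate, had 5.36% left at 12 h in line D, 5.89% in line E, 4.80% in shNS replicate 1 and 6.28% in shNS replicate 2. Its log2 change was -1.01 (SE 0.178, adjusted p = 0.00105). EIF2S2 (0.00, SE 0.122, adjusted p = 0.987) and EIF2S3 (-0.28, SE 0.163, adjusted p = 0.156), the beta and gamma subunits, were not called. For EIF2S2 9.45% was left in line D, 9.05% in line E, 14.8% in shNS replicate 1 and 14.3% in shNS replicate 2. Both knockdown lines were lower than both shNS replicates, as they were for the median gene (10.9% and 10.7% against 11.9% and 12.9%).

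Among EIF2B subunits, EIF2B3 (-0.89, SE 0.0881, adjusted p = 4.12e-05) and EIF2B2 (-0.71, SE 0.104, adjusted p = 0.000345) were lower by 12 h and EIF2B1 was higher (0.37, SE 0.11, adjusted p = 0.0162). The EIF2B1 call was lost without the 0 h or the 12 h library of shNS replicate 1 (0.36 and 0.35), with ERCC scaling (0.08) and on the deposited scale centred on each library's median (0.06). EIF2B4 (-0.19) and EIF2B5 (-0.01) were not called at 12 h, although EIF2B4 was lower by 8 h (-0.70, SE 0.102, adjusted p = 0.000401).

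Of the 4 kinases that phosphorylate EIF2S1, 2 were lower by 12 h and 0 higher, where 32.5% of all genes were lower and 30.5% higher. EIF2AK2, the kinase known as PKR that senses double-stranded RNA, had 4.85% left in line D, 5.51% in line E, 4.19% in shNS replicate 1 and 5.60% in shNS replicate 2 (log2 change -1.09, SE 0.0875, adjusted p = 1.71e-05). EIF2AK3, the kinase PERK of the endoplasmic reticulum stress response, had 4.53% left in line D, 3.79% in line E, 5.36% in shNS replicate 1 and 5.36% in shNS replicate 2 (-1.03, SE 0.0682, adjusted p = 1.01e-05). These levels were close in all lines. EIF2AK1, which senses haem, and EIF2AK4, which senses amino acid shortage, had log2 changes of 0.03 (SE 0.249) and -0.19 (SE 0.219) and were not called. EIF2A, a separate initiator tRNA-binding protein despite its name, was lower (-0.98, SE 0.17, adjusted p = 0.000948), and EIF2D, which acts in ribosome recycling, was higher (0.86, SE 0.234, adjusted p = 0.0103), a call lost when either shNS replicate was left out at all times (0.81 and 0.92) and on the ERCC and deposited scales (0.57 and 0.54).

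The EIF4 group carried the extremes on both sides. EIF4E, the cap-binding protein of the EIF4F complex, had the least signal left of all factors. Its 0 h signal came to 45.5 in line D, 27.4 in line E, 27.8 in shNS replicate 1 and 22.5 in shNS replicate 2. At 12 h it was 1.55, 1.18, 0.759 and 0.755 in the same order, which is 3.42% in line D, 4.30% in line E, 2.73% in shNS replicate 1 and 3.36% in shNS replicate 2. EIF4E was at 0.23 to 0.403 times the median gene, with a log2 change of -1.47 (SE 0.151, adjusted p = 5.1e-05).

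Of 4 proteins that bind EIF4E, 2 were higher than the median gene and 2 lower, where 30.5% of all genes were higher and 32.5% lower. EIF4EBP1, which holds EIF4E off until mTOR phosphorylates it, had 21.7% left at 12 h in line D, 16.1% in line E, 38.5% in shNS replicate 1 and 33.6% in shNS replicate 2. Its log2 change was 1.16 (SE 0.119, adjusted p = 5.15e-05). Both knockdown lines kept less than both shNS replicates, as they also did of the median gene. EIF4EBP3 had the most signal left of all factors, 38.6% in line D, 46.6% in line E, 48.8% in shNS replicate 1 and 63.0% in shNS replicate 2, from a low 0 h signal of 6.31 to 10.6 (log2 change 1.75, SE 0.116, adjusted p = 1.01e-05). EIF4EBP2 was slightly below the median gene (-0.35, SE 0.0777, adjusted p = 0.00343), and EIF4ENIF1, which takes EIF4E into the nucleus and to P bodies, was well below it (-0.95, SE 0.105, adjusted p = 7.32e-05). The ratio of the EIF4EBP1 signal to the EIF4E signal came to 7.52 in line D, 11.6 in line E, 10.3 in shNS replicate 1 and 13.02 in shNS replicate 2 at 0 h, and 47.6, 43.5, 146 and 130 at 12 h. It was several times higher at 12 h than at 0 h in every line, and the 12 h ratios of both knockdown lines lay below those of both shNS replicates.

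Of 10 genes for EIF4F and its helpers, 1 was higher than the median gene by 12 h, 2 were lower and 7 were not called. Over all genes 30.5% were called higher and 32.5% lower. EIF4B, which stimulates the helicase EIF4A, was lower (-0.97, SE 0.229, adjusted p = 0.00501), with 9.53% left in line D, 4.33% in line E, 5.59% in shNS replicate 1 and 5.09% in shNS replicate 2. The helicases EIF4A1 (0.33, SE 0.245, adjusted p = 0.26) and EIF4A2 (-0.05, SE 0.182, adjusted p = 0.83) were not called, nor were the scaffolds EIF4G1 (-0.24, SE 0.243, adjusted p = 0.405) and EIF4G3 (-0.03, SE 0.0764, adjusted p = 0.769). EIF4G2, a relative of EIF4G1 that lacks the part binding EIF4E, was higher (0.92, SE 0.285, adjusted p = 0.0188). This call was lost under 8 of 23 alternatives, 4 of them a single library: it was 0.89 without the 0 h library of shNS replicate 1, 0.91 without its 12 h library, 0.65 without the 12 h library of line D and 0.73 without the 0 h library of line E. With ERCC scaling it was 0.53 (adjusted p = 0.13) and on the deposited scale 0.50 (adjusted p = 0.15). EIF4A3, a helicase of the exon junction complex, and the cap-binding relatives EIF4E2 and EIF4E3 were not called (-0.28, -0.23 and -0.19).

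EIF1, the small factor that keeps the scanning ribosome from stopping at wrong start codons, was the longest-lived of the initiation factors proper. Its signal at 0 h came to 649 in line D, 851 in line E, 695 in shNS replicate 1 and 675 in shNS replicate 2. At 8 h it was 384 (line D) and 574 (line E), against 819 and 710 in shNS replicates 1 and 2, which is 59.1% and 67.4% left in the knockdown lines and 118% and 105% in shNS. At 12 h 30.7% was left in line D, 24.0% in line E, 44.4% in shNS replicate 1 and 41.3% in shNS replicate 2. The log2 change relative to the median gene was 1.55 (SE 0.132, adjusted p = 2.07e-05). Its paralogue EIF1B was not called (0.15, SE 0.155, adjusted p = 0.426), and the ratio of EIF1 to EIF1B signal was 6.88 to 11.6 at 0 h and 18.8 to 33.9 at 12 h.

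The remaining factors of scanning, start codon choice and subunit joining were mostly near the median gene. EIF1AX (-0.22), EIF5 (-0.57, SE 0.246, adjusted p = 0.0712), which triggers GTP hydrolysis on EIF2, and EIF5B (-0.27), which joins the subunits, were not called. EIF1AD, related to EIF1A by its domain, was lower (-0.76, SE 0.131, adjusted p = 0.000872). EIF6, which keeps free large subunits apart from small ones, was higher (0.70, SE 0.0798, adjusted p = 8.91e-05), with 16.5% left in line D, 16.3% in line E, 21.0% in shNS replicate 1 and 22.7% in shNS replicate 2. EIF5A, which despite its name helps the ribosome through difficult stretches in elongation, was higher by 8 h (0.74, SE 0.182, adjusted p = 0.00702), and its 12 h value of 0.43 was not called (SE 0.182, adjusted p = 0.0631). Its copy EIF5AL1 was called higher at both times (0.62 by 12 h), at a signal below 1.5 in every 12 h library.

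**Figure D3:**
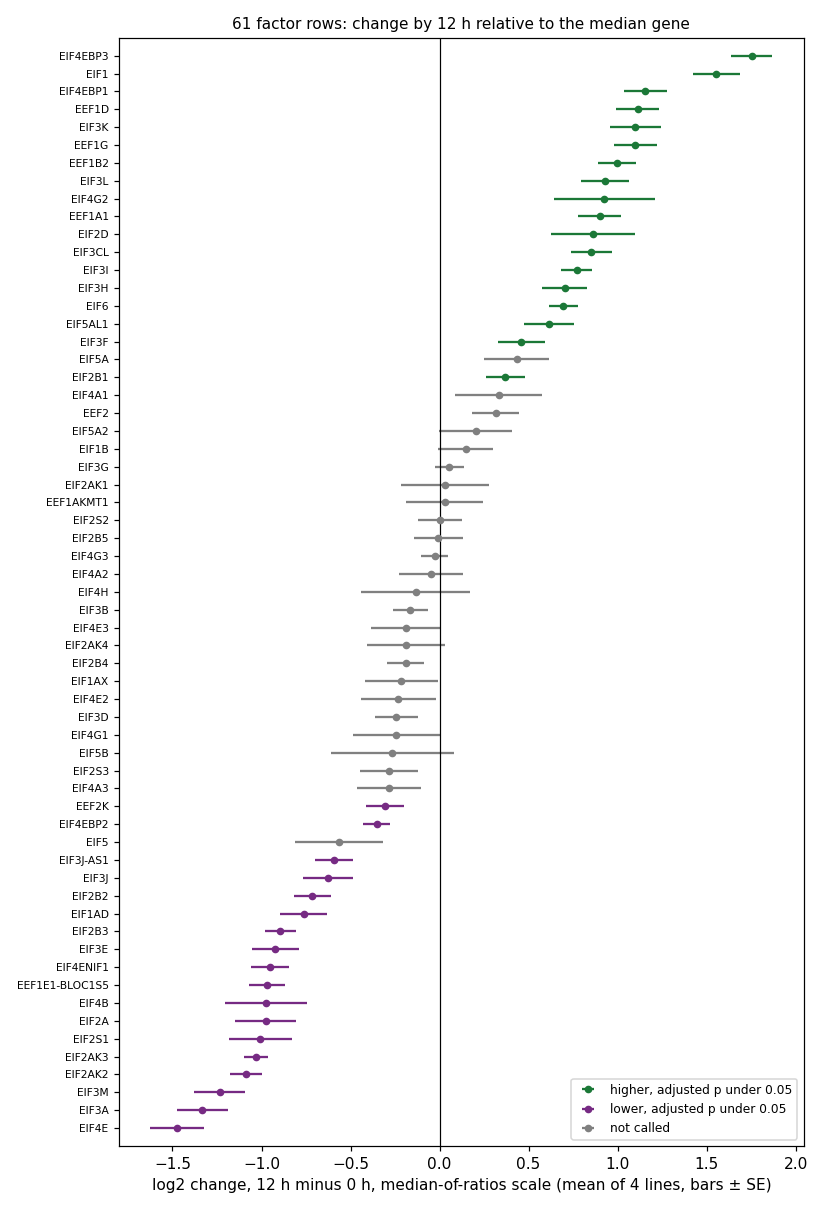
Log2 change by 12 h relative to the median gene for all 61 factors, as the mean of 4 lines with bars of ± 1 SE. Green points (18) were called higher and purple points (18) lower at an adjusted p under 0.05; EIF4EBP3 and EIF1 lead at the top and EIF4E and EIF3A are at the bottom.

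Of the 36 factors called by 12 h, 24 kept their call under every one of the alternatives tried. These include EEF1A1, EEF1B2, EEF1D, EEF1G, EIF1, EIF3K, EIF3L, EIF4EBP1, EIF4EBP3 and EIF6 on the higher side and EIF4E, EIF3A, EIF3M, EIF3E, EIF2AK2, EIF2AK3, EIF2A and EIF4ENIF1 on the lower side. Leaving out a shNS replicate at all times leaves 1 library in each shNS group. For either replicate this ended the 12 h calls of EEF2K, EIF2B1, EIF2D, EIF3F, EIF3J, EIF4B, EIF4EBP2, EIF4G2 and EIF5AL1. For replicate 1 alone it also ended those of EIF2S1, EIF3H and EIF3J-AS1. The changes themselves moved little: without replicates 1 and 2 in turn they were -0.57 and -0.67 for EIF3J, -1.02 and -0.91 for EIF4B, -0.32 and -0.37 for EIF4EBP2, and 0.61 and 0.63 for EIF5AL1. For EEF2K they were -0.29 and -0.31, for EIF2B1 0.35 and 0.40, and for EIF2D 0.81 and 0.92. For EIF3F they were 0.39 and 0.54, and for EIF4G2 0.89 and 0.97. Without replicate 1 they were -0.93 for EIF2S1, 0.67 for EIF3H and -0.46 for EIF3J-AS1. Leaving out either replicate also ended the 8 h calls of EEF2 (0.46 and 0.51) and EIF5A (0.72 and 0.77). The 8 h calls of EEF2K, EIF2A, EIF2B1, EIF2B2, EIF2B3, EIF2D, EIF2S1, EIF3F, EIF3H, EIF3M, EIF4G2 and EIF5AL1 ended in the same way.

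For comparison, 82 mRNAs of cytoplasmic ribosomal proteins had a median of 28.8% left at 12 h in line D, 18.2% in line E, 31.6% in shNS replicate 1 and 27.5% in shNS replicate 2, and 78 of 82 were called higher than the median gene. The medians of the elongation factor subunits were near these in each line. Of 34 measured genes of 35 for other cytoplasmic translation proteins (termination, recycling, poly(A) binding and modification), 7 were higher by 12 h and 15 lower. Of 9 mitochondrial translation factors 2 were higher and 1 lower. Beside these counts, 30.5% of all genes were called higher by 12 h and 32.5% lower.

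The factors called higher had shorter mRNAs at the median than those called lower. In GENCODE release 29 the selected coding transcripts of the 18 factors called higher by 12 h had a median length of 2211 bases and a median 3' untranslated region of 363 bases. The 16 factors called lower that have a coding transcript had medians of 4400 and 2212 bases, and all genes had 3072 and 1033 bases. The letters ATTTA were found on the transcript strand in the 3' untranslated region of 8 of 18 factors called higher and of 14 of 16 called lower, beside 68.2% of all genes. EIF4E had the longest, 9344 bases with 24 such matches, counting overlaps, and EIF3K had 35 bases with 0. Over 59 factors percent left at 12 h had a Spearman correlation of -0.48 with transcript length and of 0.44 with its GC content, where all genes had -0.31 and 0.40. These are correlations over genes of the same libraries. Some factors stood outside the trend: EEF1A1 and EIF1 were long-lived with 2060 and 1842 bases of 3' untranslated region, and EIF3E was short-lived with 142. All lengths are those of the selected transcripts, which need not be the forms present in these cells.

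At 0 h no factor passed the test between knockdown and shNS cells. Of the 61, 0 were called, where 1.47% of all genes were, and 14 of the 61 had an unadjusted p under 0.05, where 22.2% of all genes did (limma). The median log2 difference was 0.21, beside 0.23 for all genes, so the factors sat with the whole table, which was above 0 at its median. On the median-of-ratios scale, which sets that median to near 0, 0 factors were called, beside 0.367% of all genes. In 23 factors both knockdown libraries lay above both shNS libraries, where 46.4% of all genes did. In 7 both lay below (EEF1D, EIF2A, EIF3E, EIF3G, EIF3L, EIF4B and EIF4H), where 6.88% of all genes did.

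EIF5A came nearest to a call among factors with a signal well above the pseudocount. Its 0 h signal was 1028 (line D) and 731 (line E), against 441 and 448 in shNS replicates 1 and 2 (879 ± 210 against 444 ± 4.88, SD, n = 2 each). The log2 difference was 0.96 (SE 0.259, adjusted p = 0.0803). The copy EIF5AL1 had 0.97 (adjusted p = 0.0529). With the correlation between libraries of a line estimated, the count of factors called was 2, where 3.56% of all genes were called.

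The 0 h values of some EIF4 genes also did not overlap between the arms, and in each line D was the farther from shNS. EIF4G2, EIF4G1 and EIF4A1 had the higher values in knockdown cells and EIF4B the lower ones. EIF4G2 had a 0 h signal of 681 in line D and 362 in line E, against 283 and 273 in shNS replicates 1 and 2 (log2 difference 0.83, SE 0.381, adjusted p = 0.223). EIF4G1 had 319 and 231 in lines D and E, against 162 and 149 in shNS replicates 1 and 2 (0.80, SE 0.31, adjusted p = 0.164). EIF4A1 had 921 and 629 in lines D and E, against 532 and 539 in shNS replicates 1 and 2. EIF4B had 336 and 350 in lines D and E, against 486 and 458 in shNS replicates 1 and 2 (-0.46, SE 0.304, adjusted p = 0.389). None of these passed the test. The 2 knockdown lines differed enough to set the count: without line E at all times 33 factors were called at 0 h, where 52.5% of all genes were, and without line D 9 were, where 21.8% of all genes were. The factors thus followed the whole table in this too.

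**Figure D4:**
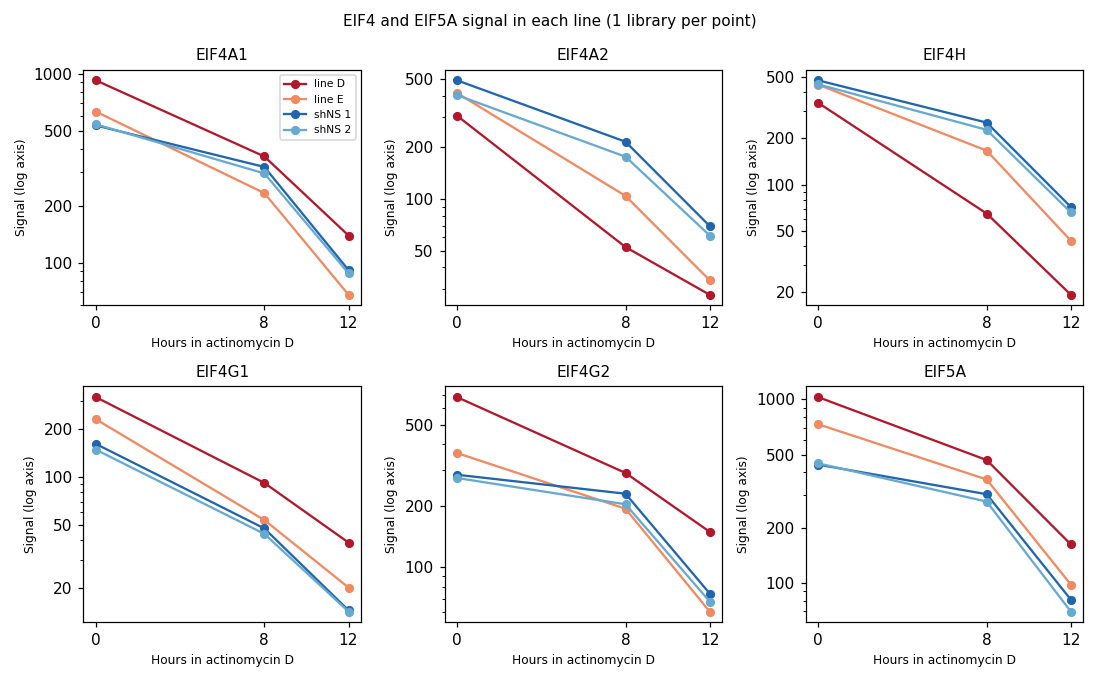
Signal (log axis) at 0, 8 and 12 h in actinomycin D for EIF4A1, EIF4A2, EIF4H, EIF4G1, EIF4G2 and EIF5A, with 1 library per point and lines joining the libraries of a line or replicate. Line D starts above the shNS replicates for EIF4A1, EIF4G1, EIF4G2 and EIF5A and below them for EIF4A2 and EIF4H.

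Between 0 and 8 h the knockdown libraries lost more signal than the shNS libraries across the whole table. The difference in log2 change was below 0 for 61 of 61 factors and for 9221 of 9529 genes, with medians of -0.58 and -0.48. Between groups, limma called 0 of 61 factors and 0% of all genes, and 12 factors had an unadjusted p under 0.05, where 16.4% of all genes did. In that fit 41 factors were called without line E, where 66% of all genes were, and 3 without line D, where 1.07% of all genes were. The libraries of a knockdown line deviated together, so the line was also fitted as a block. With the block 24 of 61 factors fell further in knockdown cells, where 26.1% of all genes did, led by EIF1B (-1.29, SE 0.240, adjusted p = 2e-05), EIF1AD (-1.22), EIF3M (-1.11), EIF4A2 (-1.07), EIF3E (-0.98) and EIF4H (-0.95). With the block on the median-of-ratios scale, which sets each library to its own median gene, 0 factors were called, beside 0.021% of all genes.

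EIF1B shows the pattern. Its signal was 94.2 (line D) and 73.4 (line E) at 0 h, against 82.5 and 73.6 in shNS replicates 1 and 2. At 8 h 18.4% was left in line D and 41.4% in line E, against 71.9% and 67.2% in shNS replicates 1 and 2. At 12 h 6.22% was left in line D and 11.2% in line E, against 19.2% and 20.2% in shNS replicates 1 and 2. Both knockdown lines were below both shNS replicates at 8 and 12 h, and line D was the lower of the knockdown lines.

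At 12 h the differences were smaller at the median. The difference in log2 change, knockdown minus shNS, had a median of -0.28 over the factors and -0.19 over all genes, and limma called 0 of 61 factors and 0% of all genes, with 5 factors at an unadjusted p under 0.05, where 3.54% of all genes had one. With the line as a block 3 factors were lower, where 2.19% of all genes were: EIF1B (-1.13, SE 0.240, adjusted p = 0.000604), EIF4H (-0.97, SE 0.235, adjusted p = 0.00461) and EIF4EBP1 (-0.93, SE 0.236, adjusted p = 0.00789). With the block on the median-of-ratios scale 1 factor was called, EIF2D (-0.56, SE 0.127, adjusted p = 0.0493), where 1.74% of all genes were called lower.

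Averaged over 0, 8 and 12 h, so that each line counts once, 2 of 61 factors were lower in knockdown cells and 0 higher, where 2.42% of all genes were lower and 2.72% higher, or 5.14% in all. Both are EIF4 genes. EIF4A2, a paralogue of the helicase EIF4A1, had a log2 difference of -0.93 (SE 0.246, adjusted p = 0.0206). EIF4H, which stimulates the same helicases, had -0.89 (SE 0.261, adjusted p = 0.0397). On the median-of-ratios scale 0 factors and 0% of all genes were called.

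EIF4A2 had a signal of 306 in line D and 415 in line E, against 492 and 403 in shNS replicates 1 and 2 at 0 h. At 8 h it was 52.4 (line D) and 104 (line E), against 216 and 177 in shNS replicates 1 and 2. At 12 h it was 27.6 (line D) and 33.6 (line E), against 69.6 and 61.3 in shNS replicates 1 and 2. The groups overlapped at 0 h and were apart at 8 and 12 h. The ratio of EIF4A1 to EIF4A2 signal was 5.04 (line D) and 2.01 (line E), against 1.31 and 1.43 in shNS replicates 1 and 2 at 12 h.

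EIF4H had a signal of 340 in line D and 446 in line E, against 476 and 448 in shNS replicates 1 and 2 at 0 h. At 12 h it was 19.3 (line D) and 43.3 (line E), against 71.7 and 66.1 in shNS replicates 1 and 2. Line D was the lowest at each time, and without line D the difference over times was -0.41 and not called. The EIF4H call was lost under 8 of 14 alternatives and that of EIF4A2 under 5 of 14, among them both other scalings. The differences were about as large there: with ERCC and median-of-ratios scaling they were -0.90 and -0.94 for EIF4A2 (adjusted p = 0.0531 and 0.149) and -0.86 and -0.90 for EIF4H (adjusted p = 0.094 and 0.234).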

How the data were processed

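The 12 libraries hold poly(A) RNA of NOMO-1 cells and were made with a stranded kit per the labels' protocols. The deposited values are a normalised expression signal per gene symbol made by the authors. STAR, RSEM and GRCh38 are in the submitters' processing notes with no versions given here, and no label states how the signal was scaled. The flat ERCC signal is the evidence here for scaling to the 46 spike-ins. The labels' treatment protocol speaks of FTO and of drugs, whereas the titles give ALKBH5 hairpins and actinomycin D. Groups follow the titles. No counts were given, so depth is unknown and no counting interval could be made.

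All 9529 genes with a mean signal of at least 1 (the lowest mean was 1.30) were tested as log2(signal + 1) with limma 3.58.1 in R 4.3.3, with a mean-variance trend, in a model of 6 group means. Fold changes on that scale understate the change of low genes. P-values were adjusted by Benjamini-Hochberg over all genes and called under 0.05. Changes relative to the median gene used median-of-ratios scaling and the mean of both arms. Line means over the times were compared 2 against 2. Family differences have no test. The tests were also run on simulated data. The noise there was drawn for each library alone, so it does not cover libraries of a line that deviate together.

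The factors, gene lists and rule for named genes were chosen with earlier results of these data known. By that rule the text names factor subunits and regulators, the extremes at 0 h and the called factors with the largest changes. The TOP list and other lists are from general knowledge. Transcripts are those of the best APPRIS rank in GENCODE release 29, where 60 of 61 symbols and 59 coding transcripts were found. Ties went to the longest coding part and then to the longest transcript. Gene starts are from RefSeq (GRCh38.p14), where 49 were found. Python 3.11.15 made the descriptions.

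Pairing was checked by the correlation over genes of the within-group differences between times. It was 0.777, 0.657 and 0.900 for the knockdown lines, which the letters in the column names tie across times, and 0.271, 0.0651 and 0.138 for the shNS replicate numbers. Alternatives were other filters, pseudocounts and scalings, no trend, line blocks and leaving out libraries or lines.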

Additional observations from a re-analysis of the deposited data

How the results depend on the processing

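Counts of factors are given out of 61. The paired analysis with line as a block gave 24 factors for the 8 h difference between arms and 3 for the 12 h one, against 0 without a block. Over all 9529 genes the block gave 2493 and 222, against 0 without it. Blocking the knockdown lines alone gave 19 and 3 factors (2076 and 160 genes). The block with median-of-ratios scaling gave 0 and 1 (2 and 335 genes), and both settings were chosen after seeing the data. At 0 h an estimated correlation within lines gave 2 in place of 0. The block left the relative changes by 8 and 12 h within 1.5 times of their counts.

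For the line means over the times, 2 factors were called, and 490 of 9529 genes. A minimum mean of 5 gave 6 factors (600 genes) and a pseudocount of 0.1 gave 1 (348 genes). No trend gave 1 (338 genes), ERCC scaling gave 0 (329 genes) and median-of-ratios scaling gave 0 (0 genes). The additive model over 12 libraries gave 16 (2008 genes), and 8 (918 genes) with a correlation within lines as the block. Means over 0 and 8 h gave 6 (430 genes), and over 0 and 12 h gave 0 (15 genes).

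The elongation minus initiation difference was 0.35 by 8 h and 0.48 by 12 h with means over members, and 0.85 and 0.97 with subunits alone. The EIF3 difference by 12 h was 0.22 with a pseudocount of 0.1 and reversed to -0.074 with means over members. The causes were not tested.

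Leaving out each library or line in turn gave 0 to 33 factors at 0 h, 21 to 51 for the relative change by 8 h, 24 to 51 by 12 h, 0 to 41 and 0 to 9 for the differences of the 8 and 12 h changes, and 0 to 20 for the line means. The highest counts came without line E, or without line D for the relative change by 8 h. The lowest for the relative changes came without shNS replicate 1, by 8 h equally without replicate 2. Such a fit leaves 1 library in a group, which was assumed to vary like the other groups, so its counts rest on that assumption. The counts over all genes also varied widely between these fits. The elongation minus initiation difference ran from 0.52 to 0.62 by 8 h and from 0.63 to 0.78 by 12 h, and the EIF3 difference from 0.13 to 0.20 and from 0.01 to 0.12. Over all genes the count at 0 h was 140, and 82 with a minimum mean of 5, 18 with a pseudocount of 0.1, 35 with median-of-ratios scaling and 339 with the correlation within lines. Omitting the filter removed no gene and so tested nothing. At 12 h many signals are near 1, where the pseudocount weighs on the change.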
